A study of Mus musculus with 2 samples.

Results

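The mitosis genes were 32 genes that act from the entry into mitosis to the separation of the daughter cells, taken by symbol from the 32285 genes counted in mouse gingiva, and all 32 were found. They were grouped by role as markers of proliferating chromatin (Mki67 and Top2a), cyclins with their kinase (Ccna2, Ccnb1, Ccnb2 and Cdk1), kinases of mitosis (Plk1, Aurka, Aurkb, Bub1, Bub1b and Ttk), centromere and kinetochore proteins (Cenpa, Cenpe, Cenpf, Ndc80 and Nuf2), chromosome passenger proteins (Birc5 and Cdca8), spindle proteins (Kif11, Kif20a, Kif23, Tpx2, Nusap1, Prc1, Hmmr, Aspm and Ckap2l), regulators of the anaphase promoting complex and of mitotic entry (Cdc20, Ube2c and Cdca3), and the cytokinesis protein Anln. Single-cell RNA sequencing was carried out on the palatal gingiva of female C57Bl6/J mice (strain C57BL/6) aged 8 to 12 weeks. The palate received 3 µl of either CpG ODN, short DNA with unmethylated CpG motifs that activates TLR9, or LPS, a bacterial cell wall lipid that activates TLR2/4, each at 1 µg/ml, and was covered with an oral appliance for 1 h. Tissue was taken after 4 days and released with collagenase II and then trypsin, and equal numbers of cells from 4 mice were pooled into 1 library per ligand. An untreated library was not analysed here. With 1 pooled library per ligand, the mice cannot be told apart and no test between the ligands was possible. Every interval given is a 95% interval that covers counting error only, and a difference between the libraries cannot be told apart from a difference between the 2 preparations.

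A cell that enters mitosis makes the RNAs of the spindle, the kinetochores and the cyclin B kinase in a short burst, since most of these genes are switched on late in the cell cycle and their products are destroyed as the cell leaves mitosis. In the stratified epithelium of the mouth, division is known to be the task of the basal layer on the basement membrane, from which daughter cells move up, make other keratins and are shed. Germinal centre B cells, which expand in lymphoid tissue during an antibody response, are among the fastest dividing cells of the adult body.

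After CpG ODN the library comprised 6219 barcodes and 72173148 UMIs (unique molecules counted), and after LPS 2016 barcodes and 38656738 UMIs. Cells were barcodes with at least 800 detected genes, which left 4888 cells at a median of 11077.5 UMIs after CpG ODN and 1277 cells at a median of 22680 UMIs after LPS. Of the barcodes in the 2 libraries, 5 were shared, among them 1 that was kept as a cell. Since the LPS cells held more UMIs, a gene could be found in more of them at the same level. Shares were therefore also given at equal depth, as the share of cells expected to keep at least 3 member UMIs when every cell is drawn down to 1500 UMIs. Levels are UMIs per 1e+06 UMIs of the same cells (CPM), a scale that does not depend on transcript length in 3′ counting.

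The 32 genes were nearly silent in most cells and came on together in a few. None of them was detected in 2627 cells of the CpG ODN library (4888 in all) and in 539 cells of the LPS library (1277 in all). At the other end, 11 cells after CpG ODN and 6 cells after LPS held all 32. A cell was called dividing when at least 8 of the 32 genes were detected. By that rule 367 cells were dividing after CpG ODN, 7.51% of the library (6.78 to 8.28), and 81 after LPS, 6.34% (5.07 to 7.82). At equal depth the shares were 7.11% and 4.83%, a ratio of 1.47 against 1.18 for the shares as called, and the summed level of the 32 genes was 551 CPM and 433 CPM. After CpG ODN and LPS, 26 and 12 cells held 7 of the genes, 14 and 10 cells held 8, and 181 and 87 cells held 4 to 7. The dividing cells carried 89.3% of all UMIs of the 32 genes after CpG ODN and 88.7% after LPS, and the median dividing cell held 20 of the genes with 54 UMIs after CpG ODN and 22 of the genes with 89 UMIs after LPS.

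**Figure D1:**
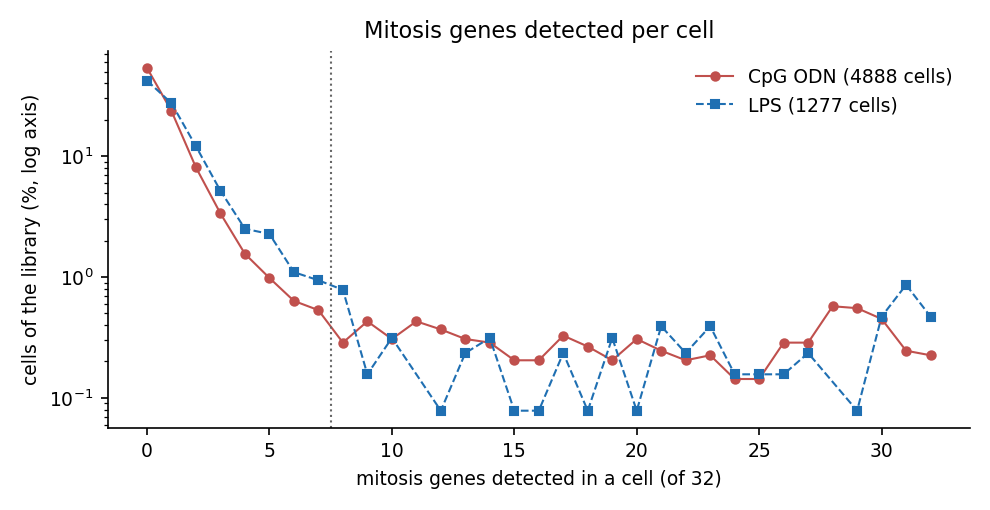
Number of the 32 mitosis genes detected in a cell (horizontal axis) against the percent of the library's cells (vertical log axis) for CpG ODN (circles) and LPS (squares). The dotted line marks the limit of 8 genes, below which most cells hold none or a few, and above which the 367 and 81 dividing cells spread up to all 32 genes; numbers held by no cell have no point.

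Most dividing cells were epithelial-like in both libraries, and after CpG ODN a further group was germinal centre B-like. Classes were named from marker genes of clusters built without the mitosis genes, and 27 of 28 clusters could be named. Epithelial-like cells, of which 99.5% carried the basal keratin Krt14 after CpG ODN and 99.6% after LPS, made up 231 of the 367 dividing cells after CpG ODN (62.9%, 57.8 to 67.9) and 73 of the 81 after LPS (90.1%, 81.5 to 95.6). Germinal centre B-like cells supplied 112 of the dividing cells after CpG ODN (30.5%, 25.8 to 35.5) and 3 after LPS (3.70%, 0.770 to 10.4). The LPS library held 4 cells of this class, so its share could hardly be measured there.

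The germinal centre B-like class had the highest share of dividing cells. After CpG ODN 112 of its 237 cells were dividing (47.3%, 40.8 to 53.8), and the summed level of the 32 genes was 4912 CPM (4815 to 5010), against 411 CPM (406 to 416) in the epithelial-like cells of the same library. Of these cells, 77.2% carried Rgs13, a signaling regulator of germinal centre B cells. The cluster was led in part by histone genes and Pclaf, which follow DNA synthesis, so its borders were drawn with the help of genes that go with division. The antibody genes Ighg2b and Jchain were also among its leading genes, and the part of antibody-secreting cells in the class was not tested. The other B cell-like cells held 1 dividing cell of 285 after CpG ODN (0.351%, 0.00888 to 1.94) and 0 of 69 after LPS, the latter at a median of 3157 UMIs.

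In the other supporting and immune classes, few dividing cells or none were found. Dividing fibroblast-like cells numbered 1 of 237 in the CpG ODN library and 1 of 54 in the LPS library. Among T cell-like cells the numbers were 1 of 80 and 0 of 26. No dividing cell was found among 76 and 23 mural-like, 49 and 24 endothelial-like, 33 and 13 myeloid-like and 24 and 11 glia-like cells, giving the CpG ODN number first. For cells that pass the rule, the small numbers allow shares after CpG ODN of up to 3.95% in mural-like, 6.12% in endothelial-like, 9.09% in myeloid-like and 12.5% in glia-like cells. They allow up to 13.0%, 12.5%, 23.1% and 27.3% in the same classes after LPS. These limits take 3 cells over the number of cells and lie somewhat under the upper ends of the exact intervals. They do not bound the share of dividing cells, since the medians of these classes after CpG ODN were 1861 to 5182 UMIs, against 13240 in epithelial-like cells, and a dividing cell at low depth can show fewer than 8 of the genes. The dividing T cell-like cell held 12089 UMIs, against a class median of 2764, with 225 UMIs of the keratins Krt5 and Krt14. The dividing fibroblast-like cell after CpG ODN also held keratin RNA, 179 UMIs of 14222, while the one after LPS held 1 keratin UMI. A cluster led by hemoglobin genes had 3 dividing cells among 30 in the CpG ODN library and 1 among 8 in the LPS library, and these 4 cells held between 217 and 443 keratin UMIs with 2.42% to 7.20% hemoglobin UMIs. The keratins made up 1.67% to 2.96% of their UMIs. The median of the whole cluster was 2.28% after CpG ODN and 2.29% after LPS, so keratin did not set the dividing cells apart. These 4 cells are listed here by their cluster and not read as dividing red cells, and whether 2 cells shared a droplet was not tested for them.

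**Figure D2:**
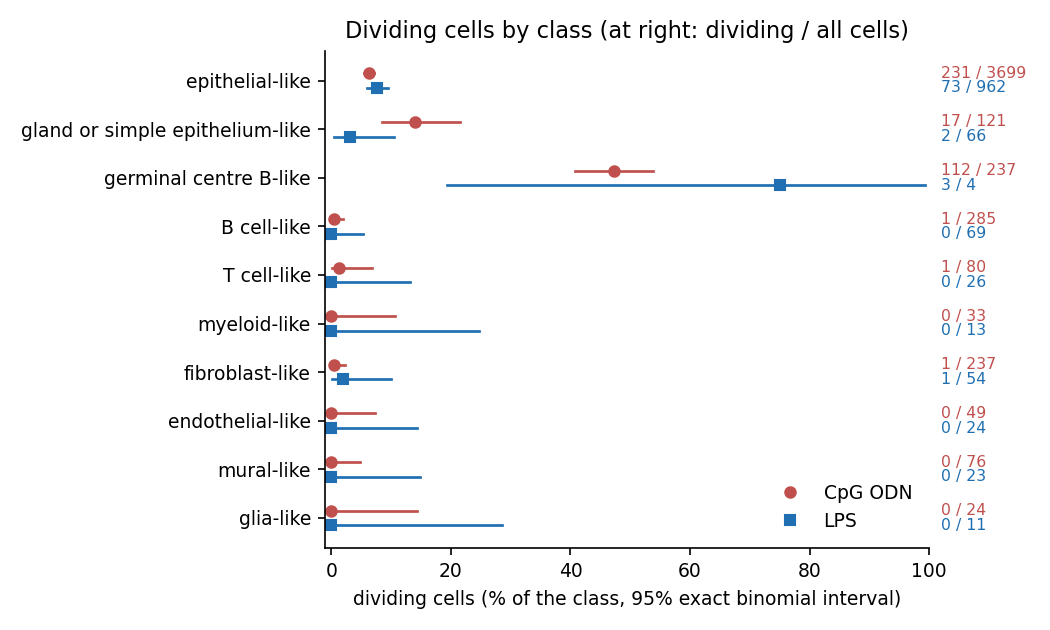
Percent of dividing cells (horizontal axis) in each named class (rows) after CpG ODN (circles) and LPS (squares), with exact 95% binomial intervals and the numbers of dividing and of all cells at the right. The germinal centre B-like class stands at 47.3% after CpG ODN, the epithelial-like class at 6.24% and 7.59%, and the supporting classes lie near 0 with wide intervals.

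In gland or simple epithelium-like cells, named from markers that include Krt8 and Krt18, 17 of 121 cells were dividing after CpG ODN (14.0%, 8.40 to 21.5) and 2 of 66 after LPS (3.03%, 0.369 to 10.5). At equal depth the shares were 13.3% and 1.17%, and the summed level of the 32 genes was 1357 CPM against 84.0 CPM. The class was not made of the same cells in the 2 libraries. Krt18 was found in 37.2% of its cells after CpG ODN and in 78.8% after LPS, and the water channel gene Aqp5 of secretory cells in 14.9% and 66.7%. The basal keratins Krt5 and Krt14 made up a median of 0.775% of the UMIs of its dividing cells and 0.90% of those of its other cells after CpG ODN, against 0.0321% in the other cells after LPS. The part of this mixture in the difference was not tested.

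In epithelial-like cells as a whole, dividing cells were 6.24% after CpG ODN (231 of 3699, 5.49 to 7.07) and 7.59% after LPS (73 of 962, 6.00 to 9.45), a ratio of 0.823 (0.630 to 1.09) that holds 1. These shares depend on the limit: with at least 4 of the genes they were 10.1% and 16.1%, and with at least 16 they were 3.78% and 5.30%. The LPS cells were deeper, at a median of 27127 UMIs against 13240, and at 1500 UMIs per cell the shares were 5.47% and 5.76%, a ratio of 0.95. At 5000 UMIs with at least 8 member UMIs they were 5.61% and 5.80%. The summed level of the 32 genes was 411 CPM after CpG ODN and 453 CPM (445 to 460) after LPS, a ratio of 0.908 (0.890 to 0.926). Leaving out in each library the 1 epithelial-like cell with the most member UMIs moved this ratio to 0.930, outside its counting interval.

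The proliferation marker Mki67 on its own gave near-equal shares at equal depth. Of the epithelial-like cells, 13.1% held an Mki67 UMI in the CpG ODN library and 15% in the LPS library, and at 1500 UMIs in 4.57% and 4.48%. Among the classes without a dividing cell, after CpG ODN it was found in 0 of 76 mural-like cells at a median of 4715 UMIs, 1 of 49 endothelial-like cells (2.04%) at 3220, 1 of 24 glia-like cells (4.17%) at 1861 and 3 of 33 myeloid-like cells (9.09%) at 5182. The LPS library had it in none of the cells of these classes. Of the epithelial-like cells that were not called dividing, 7.64% after CpG ODN and 8.55% after LPS held an Mki67 UMI.

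Along the layers of the epithelium, the dividing cells lay low. Each epithelial-like cell was placed by a layer index, the share of spinous and cornifying marker UMIs among these and the basal marker UMIs, which runs from 0 in basal cells to 1 in differentiated cells and uses none of the 32 genes. In the lowest bin, with an index under 0.2, 183 of 1741 cells were dividing after CpG ODN (10.5%, 9.11 to 12.0) and 55 of 413 after LPS (13.3%, 10.2 to 17.0). In the next bin the counts were 32 of 638 (5.02%, 3.46 to 7.01) and 15 of 136 (11.0%, 6.31 to 17.5). From an index of 0.6 upward, 8 cells after CpG ODN and 1 cell after LPS were dividing. The median dividing cell after CpG ODN held 41940 UMIs at an index of 0.6 to 0.8, against 24150 in the other cells there. From 0.8 to 1 it held 51732 UMIs against 30890.5. The 1 dividing cell after LPS held 142802 UMIs, against a median of 53204 in the other cells of the highest bin. Whether 2 cells shared a droplet was not tested for these dividing cells. An index under 0.4 was found in 93.1% of the dividing and 62.4% of the other cells after CpG ODN, and in 95.9% and 53.9% after LPS. The summed level of the 32 genes went the same way, from 1079 CPM and 1227 CPM in the lowest bin to 41.2 CPM and 60.6 CPM in the highest, although the highest cells were the deepest, with medians of 31132.5 and 53408 UMIs. The part of the 1 dividing cell in the level of the highest bin after LPS was not tested.

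In the bin just above the lowest, the interval of the ratio of shares lay below 1. There the share of dividing cells after CpG ODN was 0.455 times that after LPS (0.239 to 0.904), the summed level was 370 CPM (358 to 382) against 841 CPM (812 to 869), and the shares at equal depth were 4.05% and 7.86%. In the lowest bin the ratio of shares was 0.789 (0.581 to 1.09) and held 1. In the third bin 8 of 479 cells (1.67%) and 2 of 118 (1.69%) were dividing, a ratio of 0.985 (0.197 to 9.53), and the shares at equal depth were 1.35% and 0.467%. The summed level in the fourth bin was 77.8 CPM after CpG ODN and 32.6 CPM after LPS (2.39, 1.99 to 2.87). Dividing cells there numbered 4 of 315 and 0 of 95. The keratins that feed the index differed between the libraries as well, with Krt4 at 1283 CPM after CpG ODN and 5327 CPM after LPS and Krt13 at 9380 CPM and 15038 CPM over all epithelial-like cells. A cell of the same layer may therefore have been placed differently in the 2 libraries, and the part of this in the difference was not tested.

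**Figure D3:**
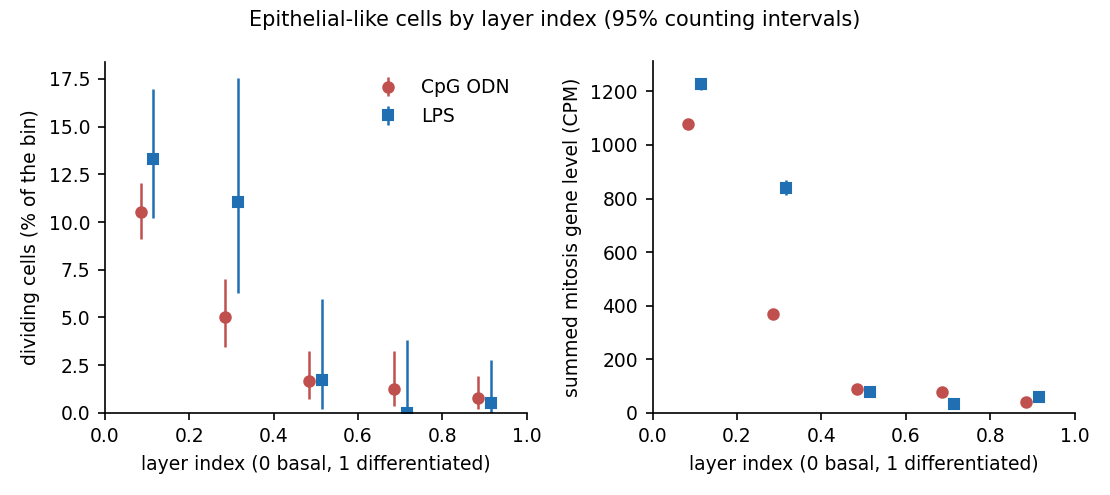
Epithelial-like cells in 5 bins of the layer index (horizontal axis, 0 basal and 1 differentiated) after CpG ODN (circles) and LPS (squares), with the percent of dividing cells at the left and the summed level of the 32 mitosis genes in CPM at the right, both with 95% counting intervals. Both panels fall from the lowest bin to the third, and the libraries stand apart in the second bin, at 5.02% and 11.0%.

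Sub-clusters of the epithelial-like cells gave the layers a finer grain. They were built without the 32 genes, without other cell cycle genes and without 1293 genes that followed them from cell to cell, a step added after a cluster of dividing cells from mixed layers had been seen. The largest, a basal sub-cluster led by Igfbp3 and the hemidesmosome collagen Col17a1, held 104 dividing cells of 1212 after CpG ODN (8.58%, 7.06 to 10.3) and 36 of 290 after LPS (12.4%, 8.85 to 16.8). A basal sub-cluster led by the imprinted RNA H19 held 13 of 113 (11.5%, 6.27 to 18.9) and 14 of 98 (14.3%, 8.04 to 22.8). Over both basal sub-clusters the ratio of shares as called was 0.685 (0.488 to 0.974), at unequal median depths of 9392 and 18720 UMIs. The shares at equal depth were 8.13% and 10.3%, a ratio of 0.792, given without an interval.

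Dividing cells were also found outside the sub-clusters named basal. A sub-cluster led by Lgi2 that also has the basal keratin Krt15 among its leading genes passed too few layer markers to be named. It had a median index of 0.258 over all its cells and held 84 dividing cells of 826 after CpG ODN (10.2%, 8.19 to 12.4) and 13 of 139 after LPS (9.35%, 5.07 to 15.5). The ratio of the shares as called was 1.09 (0.603 to 2.13) and held 1. At equal depth the shares were 9.26% and 6.57%, a ratio of 1.41. Its summed level of the 32 genes was 945 CPM and 754 CPM, against 861 CPM and 1019 CPM in the Igfbp3-led basal cells. It was higher than in those basal cells after CpG ODN and lower after LPS. A sub-cluster at nearly the same index, 0.273, and led by the neutrophil chemokines Cxcl2 and Cxcl1 held 19 of 394 after CpG ODN (4.82%, 2.93 to 7.43) and 9 of 71 after LPS (12.7%, 5.96 to 22.7), a ratio of 0.380 (0.164 to 0.955).

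Dividing cells were few or not found in the sub-clusters of differentiated cells. In a sub-cluster led by Tdh and Cryba2 with Krt76 among its 10 leading genes, 0 of 435 cells were dividing after CpG ODN and 0 of 129 after LPS, and the summed level of the 32 genes was 31.5 CPM and 31.0 CPM. The cornifying sub-cluster led by Lor, the main protein of the cornified envelope, had 0 of 48 and 0 of 29 at 20.1 CPM and 20.7 CPM. Of the spinous sub-clusters, the one led by Flg and holding Krt10 had 3 dividing cells of 258 and 0 of 63, and the one led by Ces1b and Krt23 had 3 of 96 and 1 of 71. The last of these, 1 cell after LPS, held 142802 UMIs against a median of 44657.5 in the other cells. A sub-cluster of 38 cells found after CpG ODN and led by the B cell genes Cd74 and Igkc held 4 dividing cells. These carry RNA of 2 cell types, and without them the epithelial share after CpG ODN was 6.20%.

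Within the epithelial-like cells the 32 genes ranged after CpG ODN from 1.59 CPM for Ttk to 40.3 CPM for Cenpf and differed little between the ligands. The level after CpG ODN was below that after LPS for 27 genes and above it for 5, with ratios from 0.681 for Cdk1 to 1.09 for Cenpf and a median of 0.90, where the median of all 12308 genes compared was 0.989. The counting interval lay below 1 for 12 of the 32 genes, where 20.8% of all genes compared had such an interval, and above 1 for 1 of them, where 15.7% did. None of the 32 was past 1.5-fold, where 6.48% of all genes compared were, 1.88% higher and 4.61% lower after CpG ODN. Since the 32 genes are carried by the same dividing cells, their ratios are not independent of each other.

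**Figure D4:**
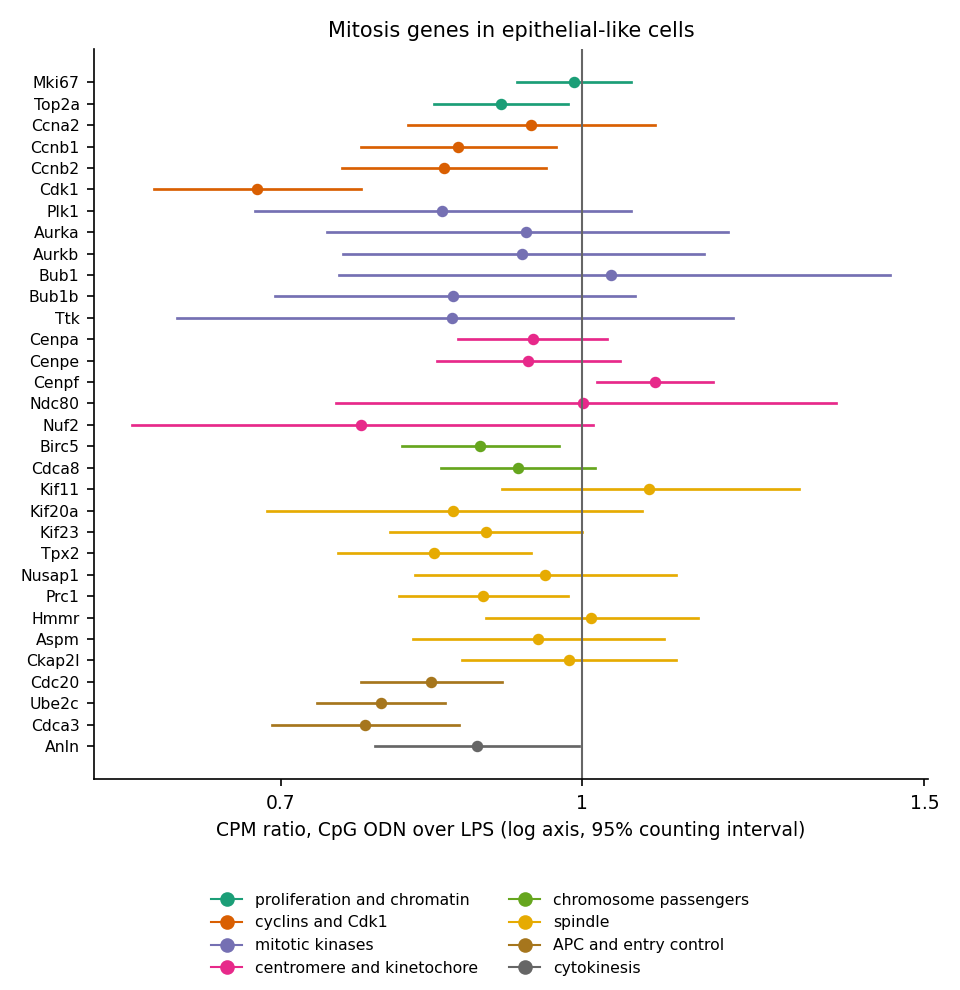
Ratio of the level after CpG ODN to the level after LPS (horizontal log axis) for each of the 32 mitosis genes (rows, colored by role) in all epithelial-like cells, with 95% counting intervals. Cdk1 lies lowest at 0.681, Cenpf highest at 1.09, and 19 of the intervals hold 1.

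Of the genes that mark proliferating chromatin, Mki67, which coats mitotic chromosomes, stood at 39.3 CPM after CpG ODN and 39.7 CPM after LPS and was found in 95.7% and 93.2% of the dividing epithelial-like cells. Top2a, the topoisomerase that untangles sister DNA, stood at 26.8 CPM and 29.5 CPM and was found in 64.5% and 71.2%. The levels of Mki67 overlapped between the libraries, with a ratio of 0.990 (0.926 to 1.06), while that of Top2a was 0.908 (0.839 to 0.984).

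The cyclins and Cdk1, which together form the kinase that drives the cell into mitosis, were among the genes that were lower after CpG ODN, with a summed ratio of 0.822 (0.773 to 0.874). Cdk1 itself stood at 9.58 CPM against 14.1 CPM, a ratio of 0.681 (0.603 to 0.769), and was found in 52.8% and 54.8% of the dividing cells. Ccnb1 stood at 12.4 CPM against 14.3 CPM and Ccnb2 at 11.2 CPM against 13.2 CPM, with intervals below 1. Ccna2, the cyclin of S phase and early mitosis, stood at 8.14 CPM against 8.65 CPM, and its interval held 1.

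The kinases of mitosis were scarce, with a sum of 17.5 CPM and 19.5 CPM over 6 genes. Plk1, which acts at centrosomes, kinetochores and the midbody, had the highest share of its UMIs in dividing epithelial-like cells of the 32 genes after CpG ODN, at 98.6%, and 0.0865% of the other cells held one. Since the dividing cells were called from these same genes, such shares are partly set by the rule and are given as a description. Aurkb, the kinase of the passenger complex, had 94.3% and 99.3% of its UMIs there, and the checkpoint kinase Bub1 96.6% and 98.3%. The spindle checkpoint kinase Ttk had the lowest level after CpG ODN, 1.59 CPM, and was found in 28.6% of the dividing cells after CpG ODN and 43.8% after LPS, at the greater depth of the latter. The summed ratio between the ligands was 0.901 (0.817 to 0.994), an interval below 1, while for each of the 6 kinases alone the interval held 1.

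Of the centromere and kinetochore genes, Cenpf, a large kinetochore protein that appears in G2, was the most abundant of the 32 genes after CpG ODN at 40.3 CPM, against 37.0 CPM after LPS. It was the gene whose interval lay above 1 (1.09, 1.02 to 1.17). Cenpa, the histone that marks the centromere, stood at 22.3 CPM and 23.6 CPM, and Cenpe, a kinetochore motor, at 14.6 CPM and 15.6 CPM. The microtubule-binding pair Ndc80 and Nuf2 stood near the bottom, at 2.16 CPM for Ndc80 in both libraries and at 2.14 CPM and 2.78 CPM for Nuf2. The summed ratio of the group was 1.00 (0.959 to 1.05).

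The passenger proteins Birc5 and Cdca8, which hold Aurkb at the centromere and later at the midzone, stood at 19.4 CPM and 20.6 CPM after CpG ODN and at 21.9 CPM and 22.2 CPM after LPS. Birc5 was found in 2.34% and 3.37% of the other epithelial-like cells and Cdca8 in 8.28% and 12.7%, although both were found in 82.2% or more of the dividing cells. The other cells include those with 4 to 7 of the 32 genes, and the part of free RNA in these shares was not tested. The share of Cdca8 UMIs in dividing cells was 74.0% and 81.0%, against 92.5% and 95.4% for Birc5.

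Among the spindle genes, Kif23, a motor of the central spindle, had the lowest such share of the 32. After CpG ODN 53.2% of its UMIs lay in dividing epithelial-like cells and 9.34% of the other cells held one, and after LPS the values were 69.1% and 12.6%. In the classes without dividing cells, at lower depth, it was found after CpG ODN in 1 of 76 mural-like, 3 of 49 endothelial-like, 0 of 33 myeloid-like and 0 of 24 glia-like cells. The LPS library had it in 3 of 13 myeloid-like cells and in none of the other such classes. Prc1, which bundles midzone microtubules, was the most abundant spindle gene at 16.8 CPM and 18.9 CPM. The others had 74.0% to 97.9% of their UMIs in dividing cells after CpG ODN, lowest for Ckap2l, a microtubule-binding spindle protein, and highest for Nusap1, which binds spindle microtubules near chromosomes. Tpx2, which activates Aurka on the spindle, and Prc1 had intervals below 1 (0.839 and 0.890), while those of the bipolar motor Kif11, the midzone motor Kif20a, Hmmr, Aspm, Ckap2l and Nusap1 held 1 and that of Kif23 ended just under it (0.892, 0.797 to 1.00).

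The regulators of the anaphase promoting complex and of mitotic entry were the role with the lowest ratio, 0.802 (0.763 to 0.843). Cdc20, the activator of the anaphase promoting complex, stood at 23.0 CPM after CpG ODN and 27.5 CPM after LPS. Ube2c, the ubiquitin carrier of that complex, stood at 27.2 CPM and 34.5 CPM, and Cdca3, a trigger of mitotic entry, at 12.6 CPM and 16.3 CPM. Anln, an anillin that organizes the cleavage furrow, stood at 11.5 CPM and 13.1 CPM, with a ratio of 0.883 (0.783 to 0.996).

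Inside the dividing epithelial-like cells alone, 26 of the 32 genes were higher after CpG ODN and 6 lower. Their median ratio was 1.06, where the median of all 8111 genes compared was 1.002. The interval lay above 1 for 10 genes, where 7.63% of all genes compared had such an interval. Cenpf (1.37, 1.27 to 1.48), Kif11 (1.34, 1.12 to 1.60) and Ckap2l (1.25, 1.08 to 1.45) were among the 10. Cdk1 (0.797, 0.702 to 0.906) and Kif23 (0.843, 0.730 to 0.975) were the genes with an interval below 1, where 7.89% of all genes compared had one. These cells were chosen by the same genes, at a median depth of 13704 UMIs after CpG ODN and 27034 UMIs after LPS. At the higher depth a cell reaches 8 detected genes with a lower summed CPM, and the part of this in the ratios was not tested.

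Dividing B cells and dividing keratinocytes were compared gene by gene. After CpG ODN, 112 dividing germinal centre B-like cells were set beside 231 dividing epithelial-like cells of the same library. The level was over 1.5-fold higher in the B cells for 11 of the 32 genes, where 29.5% of the 7814 genes compared were, and over 1.5-fold lower for 5, where 30.3% were. Both groups were chosen by these same genes, at median depths of 9443 and 13704 UMIs, and the part of this in the levels was not tested. The largest difference was Anln, at 17.5 CPM in the B cells and 182 CPM in the epithelial cells, a ratio of 0.0965 (0.0614 to 0.145). It was found in 17.9% of the dividing B cells and 70.6% of the dividing epithelial cells. The other 4 genes below were Ckap2l (0.523, 0.418 to 0.649), Cenpf (0.557, 0.502 to 0.617), Cdc20 (0.598, 0.522 to 0.683) and the spindle pole protein Aspm (0.635, 0.514 to 0.780).

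The genes above were led by the kinetochore gene Ndc80, at 67.9 CPM in the B cells against 29.2 CPM in the epithelial cells (2.32, 1.74 to 3.09). The checkpoint kinase Bub1b (1.91, 1.54 to 2.36), Aurkb (1.87, 1.52 to 2.30), Kif11 (1.86, 1.58 to 2.18) and Bub1 (1.84, 1.35 to 2.49) followed. Mki67 was 1.41 times as high (1.31 to 1.52) and Ccnb1 0.853 times (0.734 to 0.990). The dividing B cells held a median of 9443 UMIs and the dividing epithelial cells 13704. The germinal centre B-like cells carried 0.00934% keratin UMIs when dividing, against 2.07% in the dividing epithelial cells.

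**Figure D5:**
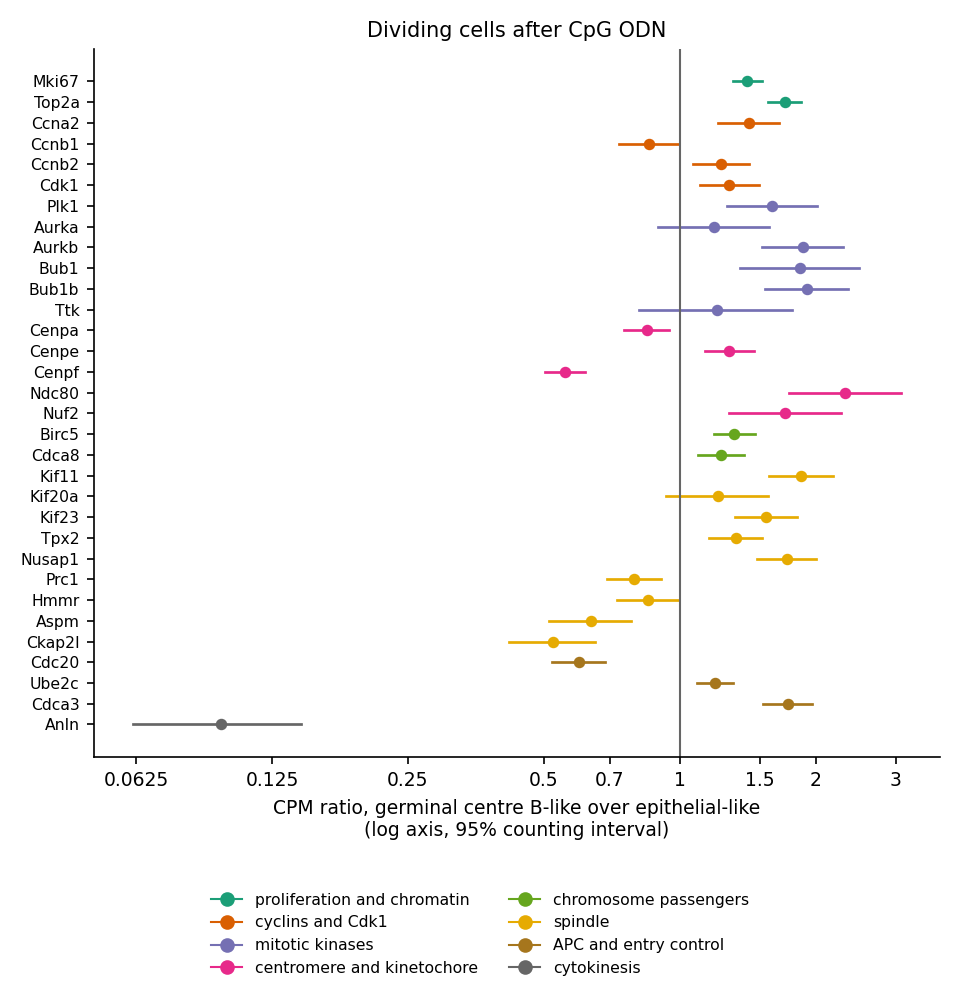
Ratio of the level in dividing germinal centre B-like cells to that in dividing epithelial-like cells after CpG ODN (horizontal log axis) for each of the 32 mitosis genes (rows, colored by role), with 95% counting intervals. Anln stands alone at 0.0965 at the left, and Ndc80 lies farthest to the right at 2.32.

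The 32 genes came on together, and the promoters of 6 of them are shown because these genes mark the ends of the comparisons above. Late cell cycle genes are known to carry a CHR element, bound by the MuvB complexes that hold them silent in resting cells, and CCAAT boxes bound by NF-Y. In windows of 300 bases from RefSeq (GRCm38.p6), from 250 bases before to 50 bases after the start, 28 of the 32 genes had an entry. The letters TTTGAA or TTCGAA, read on both strands, were found for 23 of the 28 genes (82.1%), against 21.7% of all 27025 genes with a window. The letters CCAAT, on both strands, were likewise found for 23 of the 28, against 41.1% of all genes. Both were found for 21 of the 28 (75.0%), against 8.61% of all, and the 2 motifs share no base in the windows printed. A match is a run of letters and not a measured site. In the windows that follow, written 5′ to 3′ along the transcript, capitals mark the matches of both motifs, including their reverse complements TTCAAA and ATTGG. The windows lie at chr10:69352863-69353162 (minus strand), chr7:122159185-122159484 (plus), chr1:189688037-189688336 (minus), chr9:61946750-61947049 (minus), chr17:71526808-71527107 (minus) and chr9:22389157-22389456 (minus).
Cdk1: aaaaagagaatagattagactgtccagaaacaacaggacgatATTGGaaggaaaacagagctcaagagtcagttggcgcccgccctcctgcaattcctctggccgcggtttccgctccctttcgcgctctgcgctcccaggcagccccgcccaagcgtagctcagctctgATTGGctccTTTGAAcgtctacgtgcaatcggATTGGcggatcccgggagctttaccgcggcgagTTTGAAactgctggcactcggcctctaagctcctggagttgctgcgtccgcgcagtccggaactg
Plk1: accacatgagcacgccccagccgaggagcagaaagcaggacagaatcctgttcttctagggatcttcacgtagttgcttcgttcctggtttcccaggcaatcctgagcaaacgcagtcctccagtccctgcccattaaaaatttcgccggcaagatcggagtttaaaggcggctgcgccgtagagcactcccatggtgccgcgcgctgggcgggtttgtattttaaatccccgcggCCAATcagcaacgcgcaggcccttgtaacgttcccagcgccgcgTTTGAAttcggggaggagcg
Cenpf: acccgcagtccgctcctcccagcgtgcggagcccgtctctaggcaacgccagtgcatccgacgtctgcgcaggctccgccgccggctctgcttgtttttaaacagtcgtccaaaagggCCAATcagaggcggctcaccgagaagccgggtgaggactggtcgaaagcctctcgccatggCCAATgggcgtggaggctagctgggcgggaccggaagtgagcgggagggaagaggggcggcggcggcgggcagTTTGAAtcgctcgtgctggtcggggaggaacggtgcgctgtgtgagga
Kif23: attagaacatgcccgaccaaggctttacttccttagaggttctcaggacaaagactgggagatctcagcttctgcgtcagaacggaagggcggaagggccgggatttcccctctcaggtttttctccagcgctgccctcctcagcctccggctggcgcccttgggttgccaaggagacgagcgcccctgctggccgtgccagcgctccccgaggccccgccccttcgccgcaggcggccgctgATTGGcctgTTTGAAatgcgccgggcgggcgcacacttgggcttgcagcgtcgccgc
Ndc80: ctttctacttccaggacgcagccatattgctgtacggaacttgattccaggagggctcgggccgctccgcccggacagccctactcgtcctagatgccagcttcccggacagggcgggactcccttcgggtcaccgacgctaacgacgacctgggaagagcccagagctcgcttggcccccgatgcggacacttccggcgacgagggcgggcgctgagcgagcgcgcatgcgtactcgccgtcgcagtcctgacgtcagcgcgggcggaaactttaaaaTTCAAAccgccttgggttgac
Anln: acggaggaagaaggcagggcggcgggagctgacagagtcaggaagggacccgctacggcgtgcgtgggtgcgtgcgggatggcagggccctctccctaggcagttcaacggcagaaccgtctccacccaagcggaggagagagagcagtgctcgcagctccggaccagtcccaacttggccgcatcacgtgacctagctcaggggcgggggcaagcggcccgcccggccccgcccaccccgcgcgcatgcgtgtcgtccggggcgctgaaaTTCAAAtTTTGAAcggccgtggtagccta

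Cdk1, lowest of the 32 genes between the ligands, has 2 matches of the first motif and 3 of the second. Plk1, the gene with the highest share of its UMIs in dividing cells after CpG ODN, has 1 of each, and so has Kif23, the gene with the lowest. Cenpf has 1 of the first and 2 of the second. Ndc80 and Anln, at opposite ends between B cells and epithelial cells, both have a match of the first motif and none of CCAAT in this window.

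Genes outside the 32 were then compared between dividing and other cells of the basal sub-clusters, 117 against 1208 cells after CpG ODN and 50 against 338 after LPS. The dividing cells were chosen by the 32 genes, so the comparison describes what else such cells carry. Of 62 other mitosis genes, 59 had enough UMIs, and 58 of these were over 1.5-fold higher in both libraries, where 7.91% of the 10396 genes compared were. The median ratio of the list was 22.3 after CpG ODN and 30.5 after LPS. The exception was Pttg1, the securin that guards sister chromatids, at 2.06 (1.43 to 2.91) and 1.3 (0.849 to 1.96).

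Part of the DNA replication list was higher as well. Of 25 genes compared, 14 were over 1.5-fold higher in both libraries, where 7.91% of all genes compared were, with a median of 1.88 after CpG ODN and 3.76 after LPS. Tk1, which makes thymidine nucleotides, stood at 8.82 (6.63 to 11.8) and 18.4 (12.4 to 27.9), and the ribonucleotide reductase subunit Rrm2 at 5.25 (3.69 to 7.42) and 20.0 (12.4 to 33.7). The replicative helicase gene Mcm6 stood at 1.13 (0.804 to 1.55) and 1.80 (1.26 to 2.54). By a like rule of at least 8 of 26 replication genes detected, 82 of the 231 dividing epithelial-like cells also passed the replication rule after CpG ODN (35.5%) and 36 of 73 after LPS (49.3%), at different depths. A further 206 and 66 epithelial-like cells passed the replication rule and were not called dividing. In germinal centre B-like cells after CpG ODN, 84 of the 112 dividing cells passed it (75.0%). The rule counts detected RNAs with no match for depth, so it does not show DNA replication and these shares are not compared.

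Genes of the G1 phase were not higher in dividing basal cells, and some brakes of the cycle were. None of the 6 G1 genes was over 1.5-fold higher, and Ccnd1 (0.614 and 0.601) and Ccnd2 (0.478 and 0.528), the D cyclins that start the cycle, were over 1.5-fold lower in both libraries, where 2.83% of all genes compared were. Of 11 brake genes compared, 5 were over 1.5-fold higher in both, where 7.91% of all genes compared were, among them the Cdk4 and Cdk6 inhibitors Cdkn2c (12.4 and 9.92) and Cdkn2d (7.26 and 4.95) and the Cdk inhibitor Cdkn1b (1.99 and 1.62). Cdkn1a stood at 1.1 (0.854 to 1.41) and 1.56 (1.27 to 1.91). In germinal centre B-like cells after CpG ODN, 4 of 5 G1 genes were over 1.5-fold higher in dividing cells, where 18% of the 4551 genes compared were. Among them were Ccnd2 (4.22, 1.68 to 13.6) and its kinase Cdk6 (4.57, 2.46 to 9.41). These ratios rest on 5 UMIs of Ccnd2 and 11 of Cdk6 in the other cells of the class. Of 6 brake genes compared there, 3 were over 1.5-fold higher and 2 lower, the latter Btg1 (0.479) and Btg2 (0.609), where 13.5% of all genes compared were lower.

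Beyond these lists, genes were ranked among those with at least 100 UMIs in the dividing basal cells of each library. Ribosomal, mitochondrial and hemoglobin genes were left out. The limit counts UMIs of the dividing cells only, so it favors genes that are high there. A gene scarce in dividing cells could not enter the ranking, so the lowest ranked need not be the most reduced genes. The histone Hist1h2ap, which belongs to a family of near-identical copies whose reads may be split, stood at 801 CPM in dividing and 18 CPM in other basal cells after CpG ODN and at 816 CPM and 18.2 CPM after LPS. Cdkn3, a phosphatase of cyclin-dependent kinases, stood at 115 CPM against 2.15 CPM and 116 CPM against 2.91 CPM. The PCNA-binding factor Pclaf, the histones H2afx and H2afz and the tubulins Tubb4b and Tubb5 were also among the 15 highest, with ratios from 4.89 for Tubb5 after CpG ODN to 86.7 for Pclaf after LPS. The 15 also held Arl6ip1, Ccdc34 and the RNA Lockd. Among the 10 lowest were Igfbp3, the gene that leads the largest basal sub-cluster, at 212 CPM against 446 CPM (0.475) after CpG ODN and 235 CPM against 449 CPM (0.524) after LPS, the glycolytic enzyme Aldoa (0.501 and 0.551), and the snoRNA host RNAs Zfas1 (0.448 and 0.505) and Gas5 (0.647 and 0.654). The median dividing basal cell held 10369 UMIs against 9348.5 in other basal cells after CpG ODN, and 26647.5 against 18344.5 after LPS.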

How the data were processed

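Gingival cells of the 2 libraries were captured with the 10x 3′ method, and the authors deposited the raw UMI counts per gene and barcode of each library, made with Cell Ranger 4.0.0 as the file headers state. The genome build was not given in the sources used here. The counts were used as deposited, for barcodes in which 800 or more genes were detected. Cells were clustered jointly (log counts per 10000, 2000 variable genes, 30 principal components, 15 neighbors, leidenalg 0.10.2 at resolution 1, Python 3.11.15) without 139 cell cycle genes. A cluster was named from at least 3 markers at 2-fold or more and found in 20% of its cells. For the classes, the fold was over the mean of the other clusters of a coarser clustering at resolution 0.05. A cluster stayed unnamed where markers of another class prevailed among its leading genes, or where its UMIs were few and none of its own markers led it. Epithelial-like cells were sub-clustered at resolution 0.6, with the fold over the other sub-clusters. No doublets were removed, and a simulated-doublet score served in an alternative only. CPM sums carry exact Poisson, shares Clopper-Pearson and ratios conditional binomial 95% intervals, for counting error only, with a floor of 3 counts where a group was at 0. Ratios were given for genes with at least 50 UMIs in both groups together, and the threshold was 1.5-fold. For dividing against other basal cells, the 50 UMIs were counted over both groups of both libraries. Named were all 32 genes, the genes of the lists, and, outside these, the 15 highest and 10 lowest by the smaller change of the 2 libraries among genes with 100 UMIs in the dividing basal cells of each. Ribosomal, mitochondrial and hemoglobin genes were left out of this ranking. Steps were tested on simulated data. The genes and lists were chosen with earlier results of these data known. Promoter windows came from RefSeq (GRCm38.p6).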

Additional observations from a re-analysis of the deposited data

Results flagged for a closer look

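UMIs of the 32 mitosis genes also lay in the barcodes under 800 detected genes, which entered no comparison, above the limit that a count of 0 allows. Over the UMIs that are not hemoglobin they stood at 562 CPM in 1331 barcodes after CpG ODN and at 627 CPM in 739 barcodes after LPS. These levels rest on 694 and 237 member UMIs among 1235525 and 378063 UMIs. Over all UMIs of these barcodes, hemoglobin included, both levels are lower and the CpG ODN library stands higher. In the CpG ODN library 31 of these barcodes held at least 4 of the genes and 10 held at least 8. In the LPS library no barcode held more than 2. There Ube2c made up 72.6% and Nusap1 17.7% of the 237 member UMIs, against 7.57% and 1.70% in the cells of that library. In the CpG ODN barcodes they made up 26.2% and 7.78%, against 7.02% and 2.15% in the cells.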

How the results depend on the processing

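Of 71 values obtained under alternative settings, 63 stayed inside the counting interval or count limit of the value reported and 8 moved, and none changed direction among called values. The share of dividing epithelial-like cells depended on the limit on detected genes: with at least 4 genes it was 10.1% after CpG ODN and 16.1% after LPS, and with at least 16 it was 3.78% and 5.30%. The equal-depth ratio between the ligands ranged from 0.855 with both libraries weighted to the pooled mix of layer bins to 1.01 with all genes used in the clustering, and the ratio without thinning, at unequal depth, was 0.823. The ratio of the summed level (0.908) moved to 0.980 with all genes used in the clustering, to 0.930 without the cell with the most member UMIs of each library, and to 0.785 when both libraries were weighted to the pooled mix of the 5 layer bins. Leaving out the 5% of cells with the highest doublet score took the number of genes past 1.5-fold from 0 to 1, Cdk1 at 0.663. The 235 cells left out after CpG ODN held 35 of the 367 dividing cells (9.54%). The 61 left out after LPS held 8 of the 81 (9.88%), so dividing cells were over-represented among the high scores. The share of dividing cells that were epithelial-like ranged from 58.6% to 67.9% after CpG ODN and from 89.0% to 92.3% after LPS. The cause of each shift was not tested. No paired analysis was possible because there was 1 library for each ligand, without replicate numbers. The settings that weighted the layer bins or left out the cells with B cell genes were chosen after seeing the data. Both the number of cells and their low depth limit the classes without dividing cells, where a dividing cell could fall short of 8 detected genes.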
